A study of Homo sapiens with 8 samples.

Results

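RNA-seq of human bladder cancer cells was read here for 10 members of the S100 family: S100A2, S100A4, S100A6, S100A8, S100A9, S100A10, S100A11, S100A14, S100A16 and S100P. They are among the 27475 human genes in the deposited tables, were taken by their symbols, and all 10 were found. RT112 and UM-UC-3 are established human bladder cancer cell lines. Each line was transfected with 3 pooled siRNAs targeting PAI-1 (siPAI-1) or with 3 pooled scrambled siRNAs (Scr, the siControl libraries), 100 pmol each, for 72 h. There are 2 libraries in each of the 4 groups, so every group is 1 cell line under transient transfection, and no untransfected cells were analysed here. The study's methods describe independent replicate experiments for the knock-down, but the labels do not tie the libraries to them, and the p-values measure the spread between these libraries, which may be technical.

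S100 proteins are small proteins, mostly dimers, and most but not all of them bind calcium through a pair of EF-hand motifs. On binding calcium most of them expose a surface that docks onto target proteins such as annexins, myosin or ezrin, and some are released from the cell and bind receptors such as RAGE (AGER) and TLR4. Many members are made by epithelia, S100A8 and S100A9 are best known from neutrophils and monocytes, and S100P and S100A4 have been studied in tumor cell migration.

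Of the 10 genes, 9 lie on chromosome 1 and S100P on chromosome 4 (RefSeq, GRCh38.p14, in which all 10 matched). S100A10 (chr1:151982915-151993859) and S100A11 (chr1:152032506-152037004) stand at one end of the chromosome 1 cluster. The other 7, from S100A9 (chr1:153357854-153361023) through S100A8 (chr1:153390032-153422583), S100A6 (chr1:153534599-153535991), S100A4 (chr1:153543621-153545806), S100A2 (chr1:153561108-153565844) and S100A16 (chr1:153606883-153613137) to S100A14 (chr1:153614255-153616325), are packed within 258 kb. S100P is at chr4:6693878-6697170. The S100A4 and S100A5 gene models share 65 bases on the same strand, and reads from those bases cannot be told apart.

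The promoters were divided by their CG count, and are called CG-rich here at 22 or more and CG-poor at 8 or fewer. RefSeq promoter windows of 300 bases, from 250 before to 50 after the start, were searched on both strands for CG dinucleotides and for the letters TATAA, the core of a TATA box, with no overlap between these motifs. The windows of S100A10, S100A6 and S100A11 held 32, 31 and 22 CG, against a median of 14 over all 35114 RefSeq windows with quartiles of 4 and 28. S100A4 held 8, S100A9, S100A14 and S100P 5 each, the 2 windows of S100A2 held 5 and 4, the 2 of S100A16 held 3 and 8, and each of the 3 of S100A8 held 2. The 2 names compare the members with each other, since S100A11, S100A4, S100A9, S100A14 and S100P all lie between the quartiles of all windows. The 120 bases before the start are shown 5′ to 3′ for the 7 members with a single window, with each CG and TATAA in capitals, so that the letters can be read beside the levels of these genes. S100A2, S100A8 and S100A16 have several windows and are not shown. The CG-rich promoters belong to members that both lines expressed:
S100A10, chr1:151993860-151993979, minus strand: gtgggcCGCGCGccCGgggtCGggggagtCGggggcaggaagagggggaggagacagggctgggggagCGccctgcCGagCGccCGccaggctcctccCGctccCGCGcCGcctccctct
S100A11, chr1:152037005-152037124, minus strand: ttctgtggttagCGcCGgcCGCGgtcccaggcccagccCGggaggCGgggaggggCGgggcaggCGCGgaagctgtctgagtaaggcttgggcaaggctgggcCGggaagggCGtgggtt
S100A6, chr1:153535992-153536111, minus strand: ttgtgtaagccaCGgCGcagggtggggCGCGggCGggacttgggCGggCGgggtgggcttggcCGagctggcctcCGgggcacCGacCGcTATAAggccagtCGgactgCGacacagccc
The 4 CG-poor ones shown belong to members that were 65.8-fold or more higher in RT112, which does not hold for S100A16, CG-poor as well but with a ratio of 1.89, while S100A8 was near 0 in both lines:
S100A4, chr1:153545807-153545926, minus strand: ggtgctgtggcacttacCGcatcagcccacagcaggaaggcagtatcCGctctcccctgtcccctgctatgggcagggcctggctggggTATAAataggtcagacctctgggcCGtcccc
S100A9, chr1:153357734-153357853, plus strand: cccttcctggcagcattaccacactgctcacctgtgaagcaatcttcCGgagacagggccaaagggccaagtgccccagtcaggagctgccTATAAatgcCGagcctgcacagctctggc
S100A14, chr1:153616326-153616445, minus strand: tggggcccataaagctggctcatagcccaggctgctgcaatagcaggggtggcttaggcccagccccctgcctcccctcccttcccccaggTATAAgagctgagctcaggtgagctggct
S100P, chr4:6693758-6693877, plus strand: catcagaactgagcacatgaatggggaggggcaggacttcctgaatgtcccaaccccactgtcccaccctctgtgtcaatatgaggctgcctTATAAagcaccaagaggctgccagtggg
TATAA stood on the gene's own strand with its first base at -31 in S100A4, -30 in S100A6, -29 in S100A9 and S100A14 and -28 in S100P, and these letters are absent from the windows of S100A10 and S100A11. Over all RefSeq windows, 20.4% hold TATAA on either strand and anywhere in the 300 bases, which is a wider search than these positions. Of the members not shown, S100A2 and S100A16 hold none in their windows, and S100A8 holds it in some of its windows. A match describes the letters and is no measure of factor binding or of methylation, which were not measured.

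Values are in TPM, a unit of transcript abundance scaled to gene length and to the same sum in every library, so that levels can be compared between genes. FPKM steps of low genes gave estimated depths of 29.4 to 34.2 M reads per library. Cell line markers set the lines apart. The urothelial keratin KRT7 was 4180 ± 18.5 TPM in RT112 Scr and 9.22 ± 1.74 in UM-UC-3 Scr (SD, n = 2). Of 12 epithelial markers tested with Scr, 11 were higher in RT112, where 25.3% of all genes were called higher and 26.3% lower. KRT19, KRT8 and KRT18 were among them (log2 differences 11.07, 6.20 and 3.48). The 6 mesenchymal markers were split. Vimentin (VIM) was 6.93 ± 1.25 TPM in RT112 Scr and 2997 ± 205 in UM-UC-3 Scr, and ZEB1 and TWIST1 were lower in RT112 too (-7.07 and -5.76), whereas SNAI2, CDH2 and FN1 were higher in RT112 (2.10, 0.96 and 0.79, all 6 past the test). Of 10 myeloid markers, PTPRC, MPO, FCGR3A, AIF1, TYROBP, LYZ and CSF3R were at or near 0 in all 8 libraries, while CD68, a lysosomal protein, made up most of the list's sum of 273 to 280 TPM in UM-UC-3 and 14.7 to 20.3 in RT112. CD68 and CD14 were lower in RT112 with Scr (-3.94 and -1.38), CD14 at means of 0.435 and 0.105 TPM.

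One library stood apart most. In RT112 siPAI-1 replicate 1, 4 of the 9 members averaging 1 TPM or more in RT112 were over 0.5 log2 units above the mean of the other 3 RT112 libraries, against 4.96% of 12198 genes. The same library held 115 TPM of mesenchymal markers against 198 to 218 in the other 3, and 11692 TPM of epithelial markers against 12833 to 13077. These sums do not stand for every marker. FN1, at 58.3 against 108 to 120 TPM, and KRT7, at 3278 against 4136 to 4193, were among those lower there. EPCAM, GATA3, PPARG and UPK1B were highest in that library, and VIM, at 6.28 TPM, lay within the 6.04 to 8.09 of the others. The part of these markers in the S100 values was not tested, and the main S100 results that rest on this library are given with and without it. RT112 Scr replicate 1 deviated the other way. There 2 of the 9 members were over 0.5 log2 units below the other 3 RT112 libraries, against 4.03% of genes.

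With Scr, the highest members in RT112 were S100A6, which binds annexins and the calcyclin-binding protein, then S100A10, the annexin A2 partner, and S100A11, then S100A2, S100P, S100A14, S100A4, S100A16, S100A9 and S100A8. S100A10 and S100A11 had overlapping ranges, as did S100A4 and S100A16, and all other neighbours in that order were apart. In UM-UC-3 the order was S100A10, S100A11, S100A16, S100A6, S100A2, S100A4, S100P, S100A14, S100A9 and S100A8, in which S100A16 and S100A6 overlapped and so did the last 4. Together the 10 genes made up 0.848% to 1.06% of the TPM in RT112 and 0.192% to 0.204% in UM-UC-3, and S100A10 alone gave about 1007 of the 1917 to 1990 TPM of the UM-UC-3 Scr libraries. S100A6 ranked 86th of all genes in RT112 Scr, and S100A10 ranked 143rd in UM-UC-3 Scr.

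**Figure D1:**
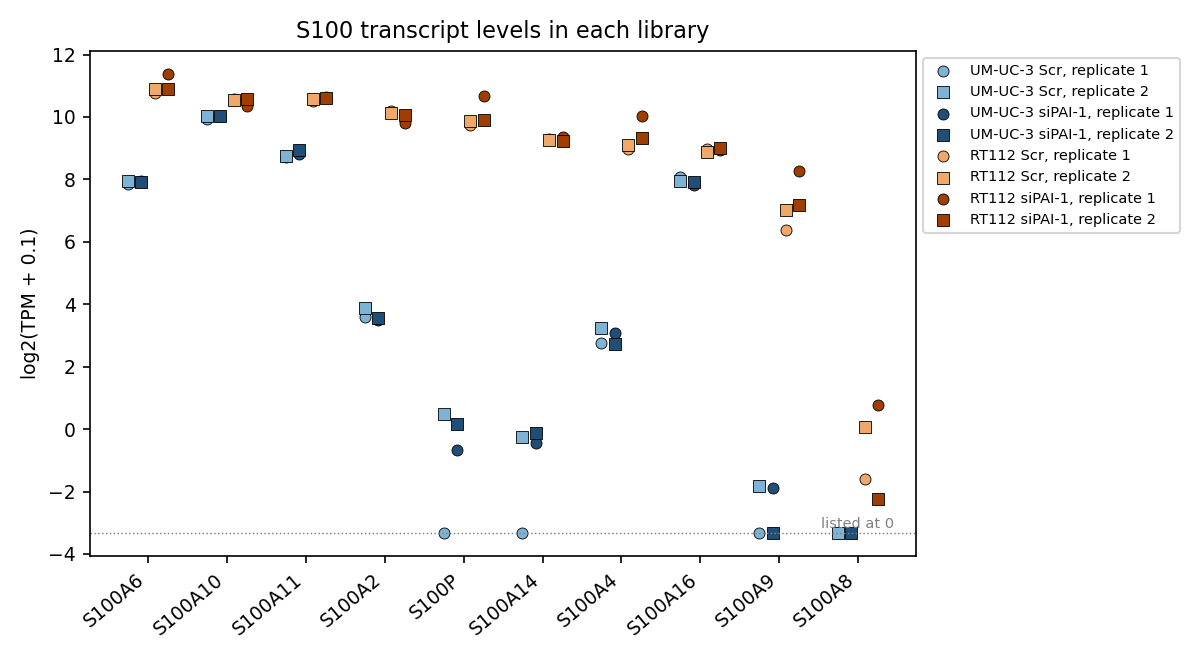
Level of each S100 member in each of the 8 libraries, as log2(TPM + 0.1), with color for the group and symbol for the replicate, ordered by level in RT112 Scr. S100A10, S100A11, S100A6 and S100A16 were at 226 TPM or more in every library, whereas S100P, S100A14 and S100A9 were at or below 1.3 TPM in every UM-UC-3 library.

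The first comparison asked how S100 transcripts differ between the cell lines. All 10 members were higher in RT112 than in UM-UC-3 with Scr and passed limma's test, with adjusted p from 0.000242 to 0.0349, where 25.3% of the 19201 genes tested were called higher and 26.3% lower. The median difference was 4.48 on the log2(TPM + 0.1) scale, or 6.04 without S100A8, beside -0.06 over all genes tested. In the siPAI-1 libraries, which share no sample with the Scr libraries, all 10 were again higher and 9 passed, against 26.2% of 19359 genes called higher and 26.1% lower. Members differed in size of effect from 1.5-fold for S100A10 to 1390-fold for S100P and 1690-fold for S100A14, as ratios of mean TPM with Scr. Both of the latter divide by a UM-UC-3 mean with 1 library at 0. Without that library, UM-UC-3 Scr replicate 1, they were 693 and 843, while with siPAI-1 they were 1660 and 866, so that their order is not settled. The inverse ratios with Scr, 0.00072 for S100P and 0.00059 for S100A14, were close to those of KRT19 (0.00058), UPK1B (0.00071), IVL (0.00073) and EPCAM (0.00091). Those of CDH1 and KRT7 were higher, at 0.0017 and 0.0022. Whether values this low in UM-UC-3 measure expression was not tested.

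The broadly expressed members differed least. S100A10, which joins annexin A2 in a tetramer at the plasma membrane, was 974 and 1040 TPM in UM-UC-3 Scr and 1541 and 1480 in RT112 Scr. The log2 difference was 0.59 ± 0.052 (SE, adjusted p = 0.00205, limma), with 1046 and 1045 against 1296 and 1522 TPM in the siPAI-1 libraries. S100A11, another annexin-binding member, was 424 and 430 TPM in UM-UC-3 Scr and 1450 and 1512 in RT112 Scr, and 449 and 487 against 1583 and 1554 with siPAI-1. Its level was 3.47-fold higher in RT112 with Scr and 3.35-fold with siPAI-1. S100A16, found in many tissues, was 267 and 246 TPM in UM-UC-3 Scr and 503 and 469 in RT112 Scr. With siPAI-1 it was 226 and 244 against 491 and 513 TPM, so that the 2 lines did not overlap under either siRNA and the ratio was 1.89 and 2.14. S100A6 was 233 and 247 TPM in UM-UC-3 Scr, 245 and 240 in UM-UC-3 siPAI-1, 1754 and 1888 in RT112 Scr, and 2675 and 1912 in RT112 siPAI-1. It was 7.59-fold higher in RT112 with Scr, the largest ratio among the members with a CG-rich promoter.

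A second group was low in UM-UC-3 and high in RT112. S100A2, a mainly nuclear member of basal epithelial cells, was 12.1 and 14.6 TPM in UM-UC-3 Scr, 11.1 and 11.7 in UM-UC-3 siPAI-1, 1169 and 1113 in RT112 Scr, and 892 and 1060 in RT112 siPAI-1. That is 85.5-fold with Scr and 85.4-fold with siPAI-1 (log2 difference 6.41 ± 0.11, SE, adjusted p = 0.000242, limma, with Scr). S100A4, a partner of non-muscle myosin IIA that is often used as a marker of fibroblasts and of mesenchymal cells, was 6.64 and 9.32 TPM in UM-UC-3 Scr and 8.41 and 6.46 in UM-UC-3 siPAI-1. In RT112 it was 498 and 552 TPM with Scr and 1051 and 635 with siPAI-1. The ratio of RT112 to UM-UC-3 was 65.8 with Scr and 113 with siPAI-1, and the log2 difference with siPAI-1 was 6.77 ± 0.29 (SE), or 6.41 without RT112 siPAI-1 replicate 1.

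S100A9, S100A14 and S100P were near 0 in UM-UC-3. S100P, an ezrin-binding member first found in placenta, was 0 and 1.3 TPM in UM-UC-3 Scr and 0.53 and 1.01 in UM-UC-3 siPAI-1. In RT112 it was 858 and 944 TPM with Scr and 1614 and 948 with siPAI-1, so that it ranked 165th of all genes in RT112 Scr and 12589th in UM-UC-3 Scr. S100A14, a member of squamous and glandular epithelia, was listed at 0 in UM-UC-3 Scr replicate 1 and at 0.74, 0.64 and 0.81 TPM in the other 3 UM-UC-3 libraries. RT112 held 628 and 620 TPM with Scr and 653 and 602 with siPAI-1, the tightest values of the 3 genes. These libraries gave log2 differences of 11.23 ± 1.34 (SE) for S100P and 11.07 ± 1.09 for S100A14 with Scr, where 1 library of UM-UC-3 was at 0, and of 10.53 ± 0.40 and 9.58 ± 0.13 with siPAI-1. S100A9, one chain of calprotectin, was 0, 0.18, 0.17 and 0 TPM over the UM-UC-3 libraries, or about 2 reads for each siRNA. In RT112 it was 82.5 and 130 TPM with Scr and 307 and 144 with siPAI-1. Per read of depth S100A9 was 1125-fold higher in RT112 with Scr, with a 95% exact interval of 311 to 9292 that covers counting error alone.

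S100A8, the other chain of calprotectin, was far below its partner. It was listed at 0 in all 4 UM-UC-3 libraries and at 0.23 and 0.95 TPM in RT112 Scr and 1.62 and 0.11 in RT112 siPAI-1, or at most about 24 estimated reads in a library. RT112 thus held 106.4 ± 33.9 TPM of S100A9 and 0.59 ± 0.51 of S100A8 with Scr (SD, n = 2). The S100A8 difference passed with Scr (adjusted p = 0.0349, limma) and not with siPAI-1 (adjusted p = 0.126), and with Scr it was lost with a pseudocount of 1 TPM (0.1), with 1 fit over all 8 libraries (0.0708), without eBayes' trend (0.0573) and without UM-UC-3 Scr replicate 1 (0.26) or 2 (0.262).

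**Figure D2:**
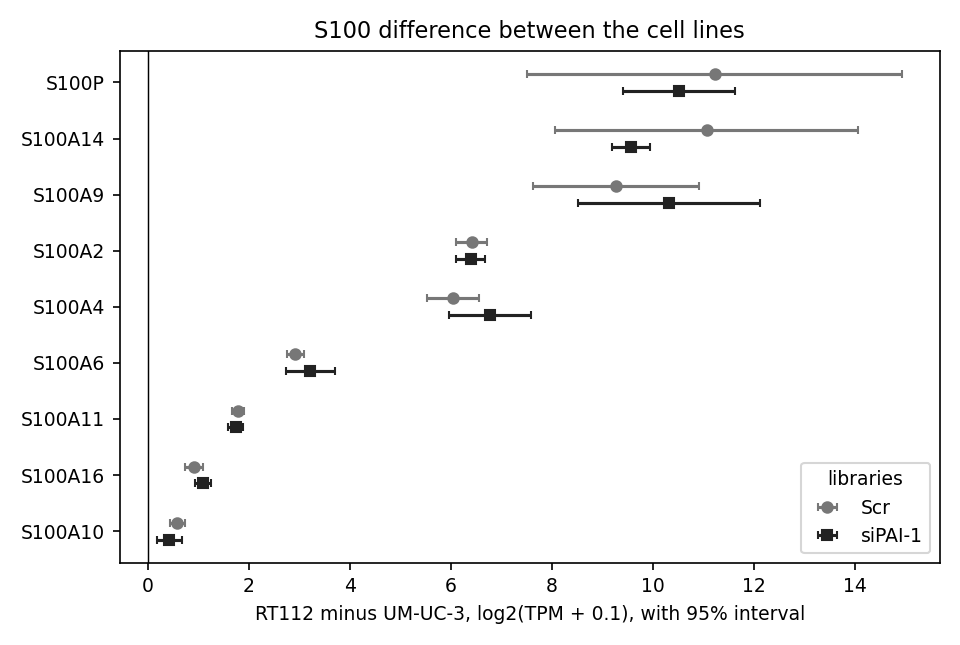
Difference of each S100 member between RT112 and UM-UC-3 on the log2(TPM + 0.1) scale, in Scr and siPAI-1 libraries, with limma's 95% interval (2 libraries a group). S100A8, listed at 0 in UM-UC-3, is left out; all 9 intervals lie above 0 under both siRNAs, from 0.59 for S100A10 to 11.23 for S100P with Scr.

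These calls depended on having both RT112 Scr libraries. Without RT112 Scr replicate 1 the test called 5 of 10 members higher, and without RT112 Scr replicate 2 it called 6, with the lone library assumed to vary like the others and every difference still above 0. Among the members lost in both fits were S100A9 (adjusted p = 0.0552 and 0.0593), S100A10 (0.0667 and 0.061), S100A14 (0.0991 and 0.0985) and S100P (0.122 and 0.124), and S100A16 was lost without replicate 1 (0.0502).

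Set beside the promoters, S100A10, S100A11 and S100A6, with 22 or more CG in the window, differed between the lines by 1.5-fold to 7.59-fold with Scr. S100A2, S100A4, S100A9, S100A14 and S100P, with 8 or fewer, differed by 65.8-fold or more. S100A16 went against this division, since it had 3 and 8 CG in its windows and a ratio of 1.89. This is a description of 9 genes, most of them neighbours on chromosome 1, and carries no test.

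**Figure D3:**
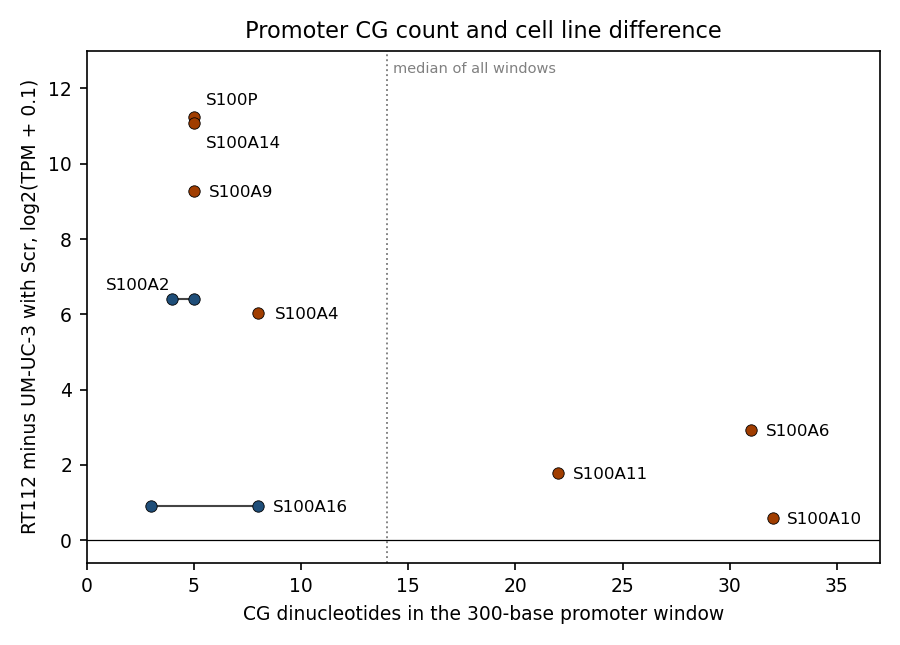
CG dinucleotides in the 300-base RefSeq promoter window against the difference between RT112 and UM-UC-3 with Scr on the log2(TPM + 0.1) scale, for 9 members without S100A8; blue points joined by a line are the 2 windows of 1 gene and the dotted line is the median of all windows, 14. S100A10, S100A6 and S100A11 lie at the right with differences below 3, S100A16 at the lower left with 0.92, and the other 5 at the upper left.

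Among 11 further S100 genes in the tables, S100A7, S100A7A, S100A7L2, S100B and S100G were listed at 0 in every library. S100A13, the copper-binding member next to S100A14, was 71.7 and 71 TPM in UM-UC-3 Scr against 101 and 123 in RT112 Scr (log2 difference 0.64 ± 0.11, SE, adjusted p = 0.0129, limma). S100A5, listed at 0 in all 4 UM-UC-3 libraries, was 4.16 and 6.8 TPM in RT112 Scr and 8.55 and 5.72 in RT112 siPAI-1. It passed in both comparisons of the lines (adjusted p = 0.001 and 0.000786, limma). S100A5 shares 65 bases with S100A4, which was 498 to 1051 TPM in RT112 and was lowest and highest in the same RT112 libraries. How many of its reads come from S100A4 was not tested. S100A1 and S100A12 passed with siPAI-1 alone (adjusted p = 0.0196 and 0.0201, limma), at means of 1.66 and 1.03 TPM in RT112. Their log2 differences were 2.02 and 3.25, or 1.66 and 2.38 without RT112 siPAI-1 replicate 1. The S100A1 call depended on having that library. Leaving it out puts S100A12 at 0.42 TPM in 1 RT112 library against 0 in UM-UC-3, which gives no spread to test with. Whether the line difference of S100A1 and S100A12 changes with the siRNA did not pass its own test. S100A3, which lies between S100A4 and S100A2, was 6.27 TPM in UM-UC-3 Scr and 4.45 in RT112 Scr, with an adjusted p of 0.16. Of the 5 tested with Scr, 2 were higher and none lower, beside 25.3% and 26.3% of all genes. S100A3 thus had a ratio of 0.71 in RT112 to UM-UC-3 with Scr, while its neighbours S100A4 and S100A2 had 65.8 and 85.5.

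Of 33 other genes around the S100 genes on chromosome 1, 27 were tested with Scr, of which 10 were higher in RT112 and 3 lower, beside 25.3% and 26.3% of all genes. Of the 4 with the highest mean TPM, the RNA-binding gene ILF2 was 279 TPM in UM-UC-3 Scr and 296 in RT112 Scr and the ribosomal gene MRPL9 110 and 107, with adjusted p of 0.343 and 0.528. RAB13, a junctional GTPase, was lower in RT112 (log2 difference -0.64 ± 0.076, SE, adjusted p = 0.00426, limma). Involucrin (IVL), a cornified envelope protein, was 0.14 and 0.21 TPM in UM-UC-3 Scr and 243 and 238 in RT112 Scr. The envelope gene SPRR3, picked here after its values were seen, was 0.055 TPM in UM-UC-3 Scr and 42.4 in RT112 Scr on average. Of 7 fused-type S100 genes, which join an S100 domain to long repeats, 5 were tested with Scr and TCHH was higher (0.52 and 1.17 TPM, adjusted p = 0.041).

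Of 11 known partners inside the cell, 5 were higher in RT112 with Scr and 3 lower, beside 25.3% and 26.3% of all genes. ANXA2, the partner of S100A10, was 5205 and 5110 TPM in UM-UC-3 Scr and 2614 and 2598 in RT112 Scr (log2 difference -0.98 ± 0.035, SE, adjusted p = 0.000385, limma), whereas S100A10 was higher in RT112. ANXA1, a partner of S100A11, was 0.648-fold in RT112 relative to UM-UC-3, and ANXA6 was 170.7 TPM in UM-UC-3 Scr and 0.68 in RT112 Scr. In the other direction, ezrin (EZR), which S100P binds, was 186 and 190 TPM in UM-UC-3 Scr and 735 and 722 in RT112 Scr. MYH9, the myosin heavy chain bound by S100A4, was 1.79-fold higher in RT112, CACYBP, which binds S100A6, 1.44-fold, IQGAP1 1.4-fold and ANXA11 1.37-fold.

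Of 6 receptors of released S100 proteins, 3 were higher in RT112 with Scr and 2 lower, beside 25.3% and 26.3% of all genes. TLR4, which binds the S100A8 and S100A9 dimer, was 0.02 and 0.03 TPM in UM-UC-3 Scr and 12.7 and 11.9 in RT112 Scr (adjusted p = 0.000455, limma). NPTN was 2.05-fold higher in RT112, and MCAM was below 1 TPM on average in all 4 groups, as was CD36, which passed with siPAI-1 (adjusted p = 0.0463, limma). CD36 was then 1.26 TPM in RT112 replicate 1 and 0.5 in replicate 2, against 0.16 and 0 in UM-UC-3. How far its call rests on that replicate 1 was not tested. BSG, the receptor called EMMPRIN, was 730 TPM in UM-UC-3 Scr and 448 in RT112 Scr. AGER, which encodes RAGE, was 3.71 and 3.56 TPM in UM-UC-3 Scr and 1.54 and 1.44 in RT112 Scr, and so was lower in RT112 (log2 difference -1.23 ± 0.21, SE, adjusted p = 0.0109, limma). With siPAI-1 the direction was the opposite, at 0.78 ± 0.27 (SE), and did not pass (adjusted p = 0.0805, limma).

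The second question was whether siPAI-1 changed S100 transcripts within each line. In UM-UC-3, 9 members were tested, S100A8 being at 0, and none passed limma's test, at the background of 0% of 18528 genes, and none had an unadjusted p under 0.05 while 482 genes with higher and 632 with lower values did. S100A10 and S100A11 were higher in both siPAI-1 libraries than in both Scr libraries and S100A2 and S100A16 lower, that is 2 and 2 of 9, where 15.1% of genes were higher and 17.1% lower in this way (17.4% and 20.4% of genes averaging 1 TPM or more). The differences were small: 0.13 ± 0.059 (SE) for S100A11, 0.05 ± 0.056 for S100A10, -0.13 ± 0.068 for S100A16 and -0.22 ± 0.14 for S100A2 on the log2(TPM + 0.1) scale. The 95% interval of S100A6 ran from -0.12 to 0.15 and that of S100A4 from -0.71 to 0.52. S100P, S100A14 and S100A9 had too few reads in UM-UC-3 for a change to be seen, with intervals from -2.15 to 4.47, from -1.19 to 4.20 and from -1.92 to 1.87.

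In RT112 all 10 members were tested and none passed, again at 0% of 18437 genes, and none had an unadjusted p under 0.05, beside 617 genes with higher and 446 with lower values. S100A4, S100A6, S100A9, S100A11 and S100P were higher in both siPAI-1 libraries than in both Scr libraries, 5 of 10 against 18% of genes, and S100A2 was lower, 1 of 10 against 14.7% (20% and 17.3% of genes averaging 1 TPM or more). The largest difference was that of S100A9, at 1.02 ± 0.42 (SE; 95% interval -0.09 to 2.13; adjusted p = 0.838), then S100A4 at 0.64 ± 0.25 (-0.01 to 1.29), S100P at 0.46 ± 0.26 (-0.23 to 1.15) and S100A6 at 0.31 ± 0.17 (-0.13 to 0.76). S100A2 was at -0.23 ± 0.097 (-0.48 to 0.02), close to its -0.22 in UM-UC-3. S100A14 and S100A16 differed by 0.01 ± 0.060 and 0.05 ± 0.060, and S100A10 by -0.10 ± 0.092.

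The RT112 siPAI-1 values rested in large part on replicate 1. Against the mean of the other 3 RT112 libraries, that library was 1.41 log2 units higher for S100A9, 0.91 for S100A4, 0.82 for S100P and 0.53 for S100A6, while S100A11 and S100A14 were 0.07 and 0.08 higher and S100A16 was at -0.01. Of the other family genes, S100A12 and S100A5, the latter sharing bases with S100A4, were 1.93 and 0.64 higher there. Without it, the difference between siPAI-1 replicate 2 and the Scr libraries was 0.48 for S100A9, 0.28 for S100A4, 0.08 for S100P, 0.07 for S100A6 and -0.11 for S100A2. Replicate 2 on its own lay above both Scr libraries in 6 members, S100A4, S100A6, S100A9, S100A11, S100A16 and S100P, and below both in 3, S100A2, S100A8 and S100A14, where 35.3% of genes were above and 27.4% below. On the Scr side, replicate 1 was at -1.12 log2 units from the other 3 RT112 libraries for S100A9 and at -0.525 for S100A4, so the differences of these genes rest on it too.

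The 4 RT112 libraries came in the same order for several members. S100A4, S100A6, S100A9, S100A11 and S100P were lowest in Scr replicate 1, then Scr replicate 2, then siPAI-1 replicate 2, and highest in siPAI-1 replicate 1, which was 5 of the 9 members averaging 1 TPM or more in RT112 and 6.5% of 12198 genes. S100A2 came in the reverse order, as did 6.03% of genes. S100A10, S100A14 and S100A16 were in neither order. In UM-UC-3 the same order was found for S100A10 and the reverse for S100A16, among 6 members, and for 3.29% and 6.17% of 12067 genes. The order was noticed in these data, and 4 libraries allow no correlation.

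**Figure D4:**
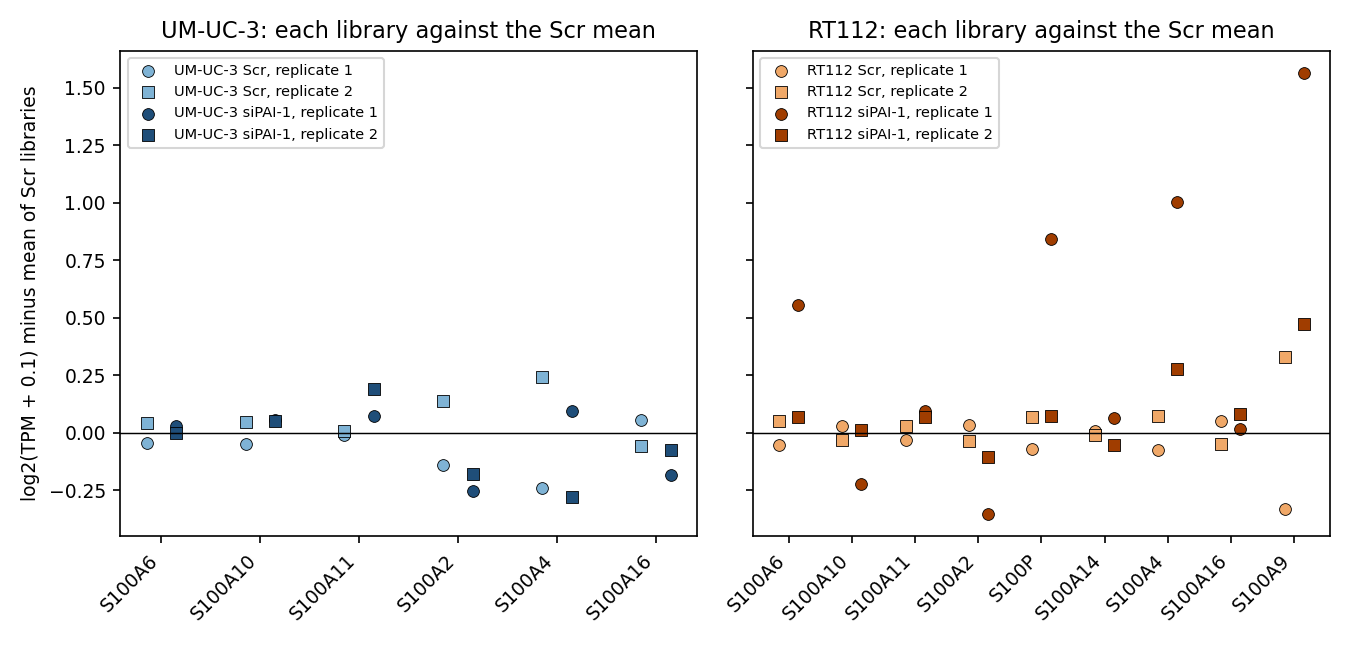
Each library's log2(TPM + 0.1) minus the mean of the 2 Scr libraries of the same cell line, for members averaging 1 TPM or more in that line (6 in UM-UC-3, 9 in RT112). In UM-UC-3 the points lie near 0 for all 6 members, and in RT112 the points far above 0 are S100A9, S100A4, S100P and S100A6 in siPAI-1 replicate 1.

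The difference between the 2 knock-down effects was tested directly. None of the 10 members passed, at 0% of 20274 genes, and none had an unadjusted p under 0.05, while 811 genes with higher and 559 with lower values did (limma). The difference was 0.73 ± 0.38 (SE; 95% interval -0.18 to 1.65) for S100A4, 0.30 ± 0.20 for S100A6 and 1.05 ± 0.97 for S100A9. Without RT112 siPAI-1 replicate 1 these were 0.37 ± 0.34, 0.06 ± 0.083 and 0.50 ± 1.19. S100A2 was at -0.01 ± 0.16 and S100A11 at -0.05 ± 0.072. Both knock-down effects enter this difference, so it adds no independent libraries.

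Partners and receptors were followed in the same fits, and none of the 11 partners or 6 receptors passed limma's test in either line. At an unadjusted p under 0.05 there were 0 partners and 1 receptor in UM-UC-3 and 1 of each in RT112. The receptor was AGER in both lines, with opposite signs. It was 3.71 and 3.56 TPM in UM-UC-3 Scr against 2.48 and 1.67 with siPAI-1, and 1.54 and 1.44 in RT112 Scr against 3.39 and 3.75. The groups did not overlap in either line, where 17.1% of genes were lower in this way in UM-UC-3 and 18% higher in RT112. AGER differed by -0.81 ± 0.30 (SE) and 1.21 ± 0.28 on the log2(TPM + 0.1) scale. Adjusted p was 0.823 and 0.838, and 0.448 for the difference of 2.01 ± 0.36 between the lines (limma). ANXA2 was 5179 and 5145 TPM in UM-UC-3 siPAI-1 against 5205 and 5110 with Scr. In RT112 it was 2226 and 2444 TPM with siPAI-1 against 2614 and 2598 with Scr. Both siPAI-1 libraries were thus lower there, as for 14.7% of genes. On average ANXA2 was within 0.16 log2 units of Scr in both lines.

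For each member the nearest gene in pattern was sought among 12803 genes averaging 1 TPM or more, as the smallest Euclidean distance of centered log2(TPM + 0.1) over the 8 libraries. S100P lay nearest to S100A14 (distance 1.25), the one pair within the family. S100A14 itself lay nearest to the keratin gene KRT17 (0.698), S100A9 to the secreted ribonuclease RNASE1 (1.23) and S100A4 to the placental-like phosphatase ALPPL2 (0.431). ALPPL2, at 0 to 0.04 TPM in UM-UC-3, was 6.55 and 9.81 TPM in RT112 Scr and 15 and 11.8 in RT112 siPAI-1. Its RT112 libraries came in the same order as those of S100A4, which the choice by smallest distance favors. S100A6 was nearest to LRRC1 (0.295), S100A2 to FUOM (0.41), S100A8 to QPRT (1.51), S100A10 to DUS4L (0.12), S100A11 to PTPMT1 (0.104) and S100A16 to PACSIN2 (0.139).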

How the data were processed

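The labels give cell line, siRNA and replicate. What the authors deposited are tables of TPM and of FPKM, with 2 decimals. Their methods name cutadapt, STAR, featureCounts and DESeq2, and the submitters' processing notes name STAR 2.5.0, RSEM 1.2.25 and GRCh38. The deposited TPM sum to 1000000 per library within rounding and carry no depth. Counts were not used here, so limma 3.58.1 (R 4.3.3; lmFit and eBayes with its trend option, two-sided tests) took the place of a count test, on log2(TPM + 0.1), a scale that understates changes of low genes. Genes above 0 TPM in at least 1 fitted library entered, with Benjamini-Hochberg adjustment over all of them and calls at 0.05. All 10 members passed this filter except S100A8 in UM-UC-3. The 92 spike-in entries were left out, and 7201 genes were at 0 throughout. Depth and reads per gene were estimated from the deposited FPKM and GENCODE 44 transcript lengths, within 20 to 45 M reads, since a doubled depth would be as good. The exact interval of the S100A9 ratio covers counting error, while limma's intervals come from the spread between libraries. The scripts were tested on simulated data. Same-numbered replicates of different groups did not deviate together (correlations -0.043 to 0.044). Named are the members, of each other list the genes that passed or, where none or over 8 passed, the 4 with the highest mean TPM, and each member's nearest gene. One gene that this rule names is not reported here. Members and lists were chosen with earlier results of these data known. Python 3.11.15, numpy 2.4.6, pandas 2.3.3 and matplotlib 3.10.9 were used.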

Additional observations from a re-analysis of the deposited data

How the results depend on the processing

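Each of 59 results was computed again with another pseudocount (1 or 0.01 TPM), with FPKM, after median ratio rescaling, over genes averaging 1 TPM or more, with all libraries in 1 model, with the replicate number as a block, without the trend, and with each library left out, which gave 737 values. Of these, 686 kept direction and side of the threshold, 20 lost a call, 3 gained one, 2 counts moved by over 1.5 times and 26 changed sign, none of them between the cell lines. Leaving out 1 library gave 5 to 9 members called higher in RT112 with Scr, against 10, and 7 to 10 with siPAI-1, against 9. The 10 with siPAI-1 includes S100A8, whose UM-UC-3 values were all 0 and so showed no spread. With the replicate block the counts stayed at 10 and 9, and at 0 for the knock-down, and it changed no call, although the numbers do not pair the libraries. Without RT112 siPAI-1 replicate 1, an alternative chosen after seeing the data, 6 members in place of 5 lay above the Scr range and 3 in place of 1 below it. These counts are not alike, since 1 library lies outside that range more easily than both do. Over all genes, 35.3% lay above and 27.4% below it by replicate 2 alone, against 18% and 14.7% by both.

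The sign changes were in knock-down values that passed no test, and the cause was not tested. A pseudocount of 0.01 TPM gave -0.118 for S100A8 in RT112 and -0.118 for its difference between the lines, a pseudocount of 1 TPM gave 0.249 for the difference of S100P, and rescaling gave -0.003 for S100A14 in RT112. With 1 library left out, the UM-UC-3 values ran from -0.334 to 0.149 for S100A4, -0.027 to 0.058 for S100A6, -0.769 to 0.716 for S100A9, -0.034 to 3.037 for S100A14 and -0.743 to 3.064 for S100P. In RT112 they ran from -1.487 to 1.547 for S100A8, -0.221 to 0.011 for S100A10, -0.051 to 0.067 for S100A14 and -0.002 to 0.098 for S100A16. The difference between the lines ran from -0.153 to 0.125 for S100A2, -1.487 to 1.547 for S100A8, -0.107 to 0.012 for S100A11, -3.029 to 0.041 for S100A14 and -2.605 to 1.202 for S100P. With 2 libraries a group, members near 0 in UM-UC-3 have the least certain values.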
